A study of Homo sapiens with 18 samples.

Results

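The comparison described here sets LX-2 cells kept for 48 h in serum-free medium against the same cells kept for 24 h, with no thrombin in either group. LX-2 is an immortalized human hepatic stellate cell line. The 6 libraries were chosen by their labels, control 48 h replicates 12, 13 and 14 and control 24 h replicates 12, 13 and 14, out of 18 in the series. The other libraries were control 4 h and thrombin at 4, 24 and 48 h, with 3 in each group. All wells held the same line, plated at 180000 cells per well in 6-well plates and grown for 48 h. After 1 h without serum, the thrombin wells received 1 U/mL and the control wells only the medium. The numbers 12, 13 and 14 come from the library titles, whose letter p is not explained. The labels do not say whether the 3 libraries of a group are separate cultures, so p-values cover only library-to-library spread, part or all of which may be technical. One cell line stands for 1 genetic background, and time in culture and time without serum cannot be told apart.

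Hepatic stellate cells store retinoids in the healthy liver and turn into contractile, matrix-producing myofibroblasts after injury. Their contractile genes are driven by serum response factor (SRF) with its coactivators MRTF and myocardin. Genes for growth and matrix signalling are driven by YAP and TAZ, which act through TEAD proteins, and by TGF-beta, which acts through SMAD proteins. Serum supplies ligands for all of these routes, and its removal is a common way to slow the cell cycle of cultured cells.

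Gene counts totalled 14649813, 14794845 and 16180176 in control 24 h replicates 12, 13 and 14, and 19099178, 18716751 and 17317519 in control 48 h. All 3 control 48 h libraries were therefore deeper than all 3 control 24 h libraries. A gene was called when edgeR's quasi-likelihood test gave a Benjamini-Hochberg adjusted p below 0.05 over the 15353 genes tested, and levels below are CPM, the share of a library's TMM-scaled total. Replicates always appear in the order 12, 13, 14. On the first principal component of the 6 libraries, which held 38.5% of the variance, the 24 h libraries scored -27.1, -20.02 and -6.38 and the 48 h libraries 23.5, 15.9 and 14.1. Control 48 h replicate 14 stood apart on the second component, at -26.8 against 13.3 and 11.6 for replicates 12 and 13. Its counts also differed more from those of replicates 12 and 13 (chi-square per degree of freedom 17.7 and 12.9) than these did from each other (3.86). Groups with different labels lay close together. Control 24 h and thrombin 4 h differed in 11 genes by edgeR (0.0716% of those tested) and 31 by DESeq2. Thrombin 48 h and control 48 h differed in 0 genes by edgeR, with 1110 (7.23%) at an unadjusted p below 0.05, and in 14 by DESeq2. Groups were kept as labelled. Whether any label is in error was not tested, and the 48 h against 24 h changes and their difference from thrombin hold for the libraries as labelled.

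Short stretches of promoter are shown for genes that moved in 3 of the lists described below, so that the letters searched for can be seen in place. They come from RefSeq's promoters (GRCh38.p14), written 5′ to 3′ on the gene's strand, with the motif in capitals. Bases that lie in an annotated exon of any transcript were left off. CCN2 and ANKRD1 are YAP and TAZ targets, and the capitals mark GGAATG, the core recognised by TEAD proteins. The stretch of CCN2 is chr6:131951374-131951622 (minus strand) and that of ANKRD1 is chr10:90921277-90921337 (minus strand).
CCN2: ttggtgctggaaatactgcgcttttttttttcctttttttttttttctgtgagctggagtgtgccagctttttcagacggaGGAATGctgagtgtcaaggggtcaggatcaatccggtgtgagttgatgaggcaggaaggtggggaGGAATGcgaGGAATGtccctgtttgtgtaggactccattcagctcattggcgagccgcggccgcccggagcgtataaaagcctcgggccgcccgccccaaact
ANKRD1: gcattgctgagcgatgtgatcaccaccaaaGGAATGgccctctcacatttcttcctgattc
DLGAP5 and ASPM are mitotic genes, and the capitals mark TTTGAA or its reverse complement TTCAAA, the cell cycle genes homology region (CHR) read by the DREAM and MuvB complexes. They lie at chr14:55191679-55191835 (minus strand) and chr1:197146695-197146919 (minus strand).
DLGAP5: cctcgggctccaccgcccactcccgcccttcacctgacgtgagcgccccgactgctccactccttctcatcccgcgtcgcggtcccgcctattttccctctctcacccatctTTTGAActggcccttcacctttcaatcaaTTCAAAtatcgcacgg
ASPM: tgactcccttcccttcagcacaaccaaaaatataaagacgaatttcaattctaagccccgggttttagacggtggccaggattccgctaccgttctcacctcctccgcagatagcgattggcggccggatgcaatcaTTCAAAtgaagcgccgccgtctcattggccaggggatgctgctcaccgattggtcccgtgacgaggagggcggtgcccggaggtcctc
CTSF and GAA encode lysosomal enzymes, and the capitals mark CACGTG, the core of the CLEAR element recognised by TFEB. They lie at chr11:66568607-66568717 (minus strand) and chr17:80101331-80101555 (plus strand).
CTSF: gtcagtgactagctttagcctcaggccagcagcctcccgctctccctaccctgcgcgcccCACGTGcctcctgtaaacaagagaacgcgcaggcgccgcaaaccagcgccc
GAA: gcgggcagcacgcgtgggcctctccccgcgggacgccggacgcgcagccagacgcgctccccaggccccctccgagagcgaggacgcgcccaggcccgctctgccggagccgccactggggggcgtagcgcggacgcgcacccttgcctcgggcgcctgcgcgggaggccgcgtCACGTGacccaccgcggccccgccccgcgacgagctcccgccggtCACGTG
Both strands of the 250 bases before each annotated start were searched, exon bases included. Of the genes tested, 11609 had an entry. GGAATG was present in 5 of 16 YAP and TAZ promoters (31.2%), beside 9.72% of the tested genes and 11.9% of all 27305 promoters. Among the members that rose, it was present in CCN2 and ANKRD1, shown because they match. It was absent from F3, AMOTL2, WWC1 and GADD45B, which also rose. TTTGAA or TTCGAA was present in 17 of 32 mitotic promoters (53.1%), beside 9.79% and 14.6%. Among those mitotic genes it was present in 9 of 19 that were called higher at 48 h and in 8 of 13 that were not called. CACGTG was present in 10 of 24 lysosomal promoters (41.7%), beside 8.61% and 6.49%. None of these 3 motifs contains another. The CArG box of SRF was in 7 of 21 promoters of its list (33.3%), beside 1.03% and 1.14%, and in neither TPM1 nor CALD1, which rose. CAGACA, the box of SMAD proteins, was in 0 of 18 promoters of the TGF-beta list, beside 10.1% and 13.6%. TAGLN, CCN1, MYL9 and PSAP were without an entry. A match is a description of letters and was not tested as a binding site.

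Between 24 and 48 h without serum, 413 genes rose (2.69% of those tested) and 527 fell (3.43%), 940 in all (6.12%). Genes that rose included those of smooth muscle proteins (TAGLN, MYOCD), matricellular proteins (CCN1, CCN2, THBS1) and mitosis (DLGAP5, KIF20A). Genes that fell included those of lysosomal enzymes (CTSD), p21 (CDKN1A), collagen IV chains (COL4A5, COL4A6) and the thrombin receptor PAR1 (F2R). Most changes were small. The median called gene was 1.35-fold higher or 1.39-fold lower, and 68 called genes (0.443%) changed at least 2-fold, 26 upward (0.169%) and 42 downward (0.274%). The median log2 change of all tested genes was -0.00368, with the 5th and 95th percentiles at -0.52 and 0.40. The 3 libraries of 48 h lay wholly above the 3 of 24 h for 2218 genes (14.4%) and wholly below for 2368 (15.4%). Of the called genes this held for 413 of 413 that rose and 520 of 527 that fell. The number of calls depended on single libraries. It was 96 higher and 118 lower without control 24 h replicate 12, 116 and 149 without control 24 h replicate 13, 145 and 155 without control 48 h replicate 12, and 173 and 185 without control 48 h replicate 13. Leaving out control 48 h replicate 14, the library that stood apart, gave 500 and 494, and thinning every library to the same depth gave 383 and 486. No called gene changed direction in these fits. Of the 129 called genes chosen by the naming rule, 57 were called in every fit that left out 1 library, and each of the other 72 was lost without at least 1 of replicates 12 and 13 of either group.

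**Figure D1:**
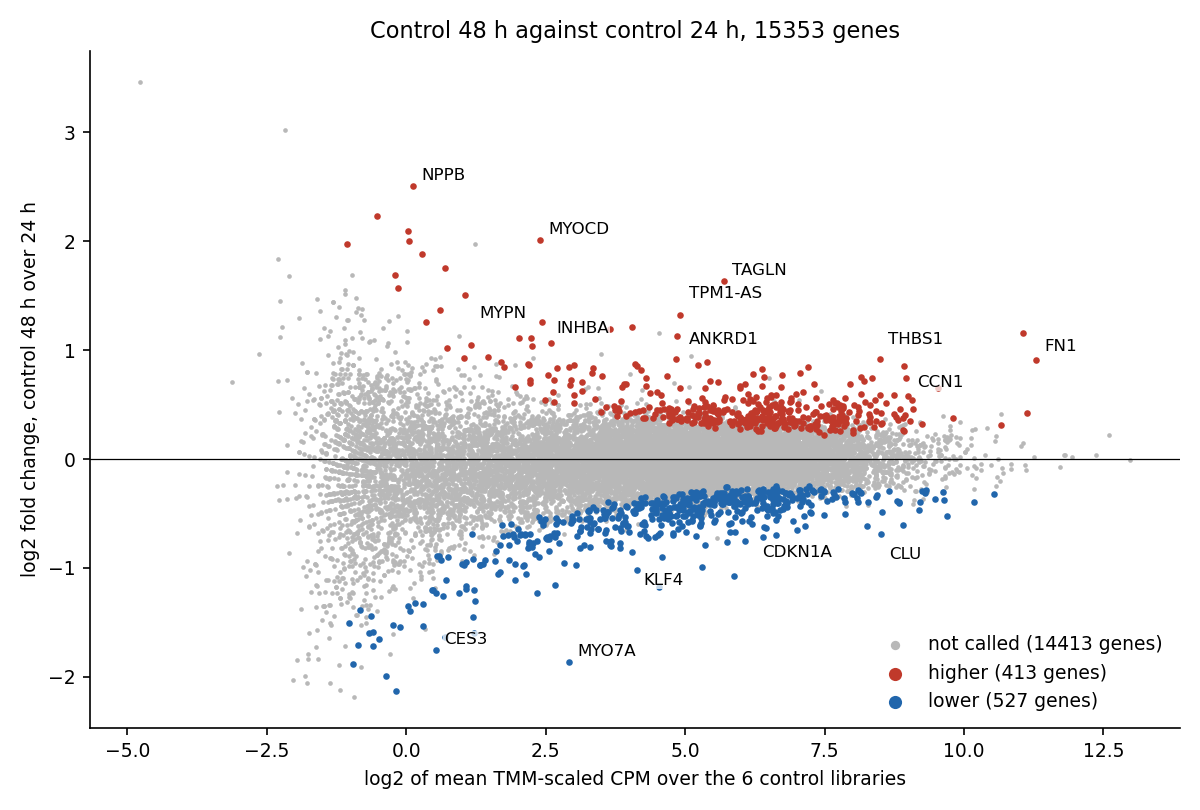
Each point is 1 of the 15353 genes tested, with log2 mean TMM-scaled CPM over the 6 control libraries on the horizontal axis and the log2 fold change of control 48 h over 24 h on the vertical axis. Red marks the 413 genes called higher, blue the 527 called lower and grey the rest, and most called genes changed less than 2-fold (1 log2 unit).

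Muscle genes gave some of the largest rises. TAGLN, encoding the actin-binding protein transgelin (chromosome 11, bases 117199294 to 117207465), stood at 27.3, 23.6 and 24.6 CPM at 24 h and 94.1, 76.4 and 63.8 CPM at 48 h. The 2 groups were far apart, and within 48 h replicate 14 was lowest. TAGLN rose 3.11-fold (log2 change 1.64 ± 0.13 SE, n = 3 and 3, edgeR adjusted p = 1.36e-08), the smallest adjusted p among the genes described here. MYOCD, encoding the SRF coactivator myocardin (chromosome 17, bases 12665890 to 12768949), measured 1.47, 1.78 and 3.00 CPM at 24 h and 11.7, 8.12 and 5.60 CPM at 48 h. Its 48 h libraries spread widely, yet the lowest lay above the highest at 24 h. MYOCD rose 4.02-fold (log2 change 2.01 ± 0.32, edgeR adjusted p = 0.00117). MYPN, encoding myopalladin, a protein of the sarcomere's Z-disc, went from 2.47, 2.64 and 4.38 CPM to 6.51, 9.24 and 7.12 CPM and rose 2.39-fold (log2 change 1.25 ± 0.20). TPM1 and CALD1 encode tropomyosin 1 and caldesmon, which bind along actin filaments. TPM1 measured 405, 403 and 426 CPM at 24 h and 659.6, 596 and 586 CPM at 48 h, and CALD1 measured 228, 246 and 254 CPM at 24 h and 456, 423 and 343 CPM at 48 h. Neither gene's groups overlapped, and the rises were 1.49-fold and 1.68-fold (edgeR adjusted p = 7.81e-05 and 0.000363). MYL9, the regulatory light chain of smooth muscle myosin, rose 1.28-fold (log2 change 0.36 ± 0.09), a call that was lost without control 24 h replicate 13 or control 48 h replicate 12 or 13 (largest adjusted p = 0.0638). TAGLN, MYOCD, MYPN, TPM1 and CALD1 were called in all 6 fits that left out 1 library.

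The rise did not extend through the list of SRF and MRTF targets. Of its 24 tested members 4 rose (TAGLN, TPM1, CALD1 and MYL9), a share of 16.7% beside 2.69% of all genes. The remaining 20 were not called. The list's median log2 change was 0.05, beside -0.00368 over all genes. ACTA2, the smooth muscle actin that defines myofibroblasts, was at 11.8, 10.8 and 9.73 CPM at 24 h and 10.5, 7.59 and 9.58 CPM at 48 h, with overlapping groups and a log2 change of -0.22 ± 0.14 (edgeR adjusted p = 0.347). FLNA, encoding the actin crosslinker filamin A, gave a log2 change of -0.01 ± 0.08 and was not called. The antisense transcript TPM1-AS, which lies inside TPM1, went from 16.8, 16.8 and 17.9 CPM to 45.7, 43.9 and 39.6 CPM, 2.51-fold higher. Reads of both strands cannot be told apart where the counting strand is not given, which also touches TAGLN, whose annotation overlaps PCSK7.

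**Figure D2:**
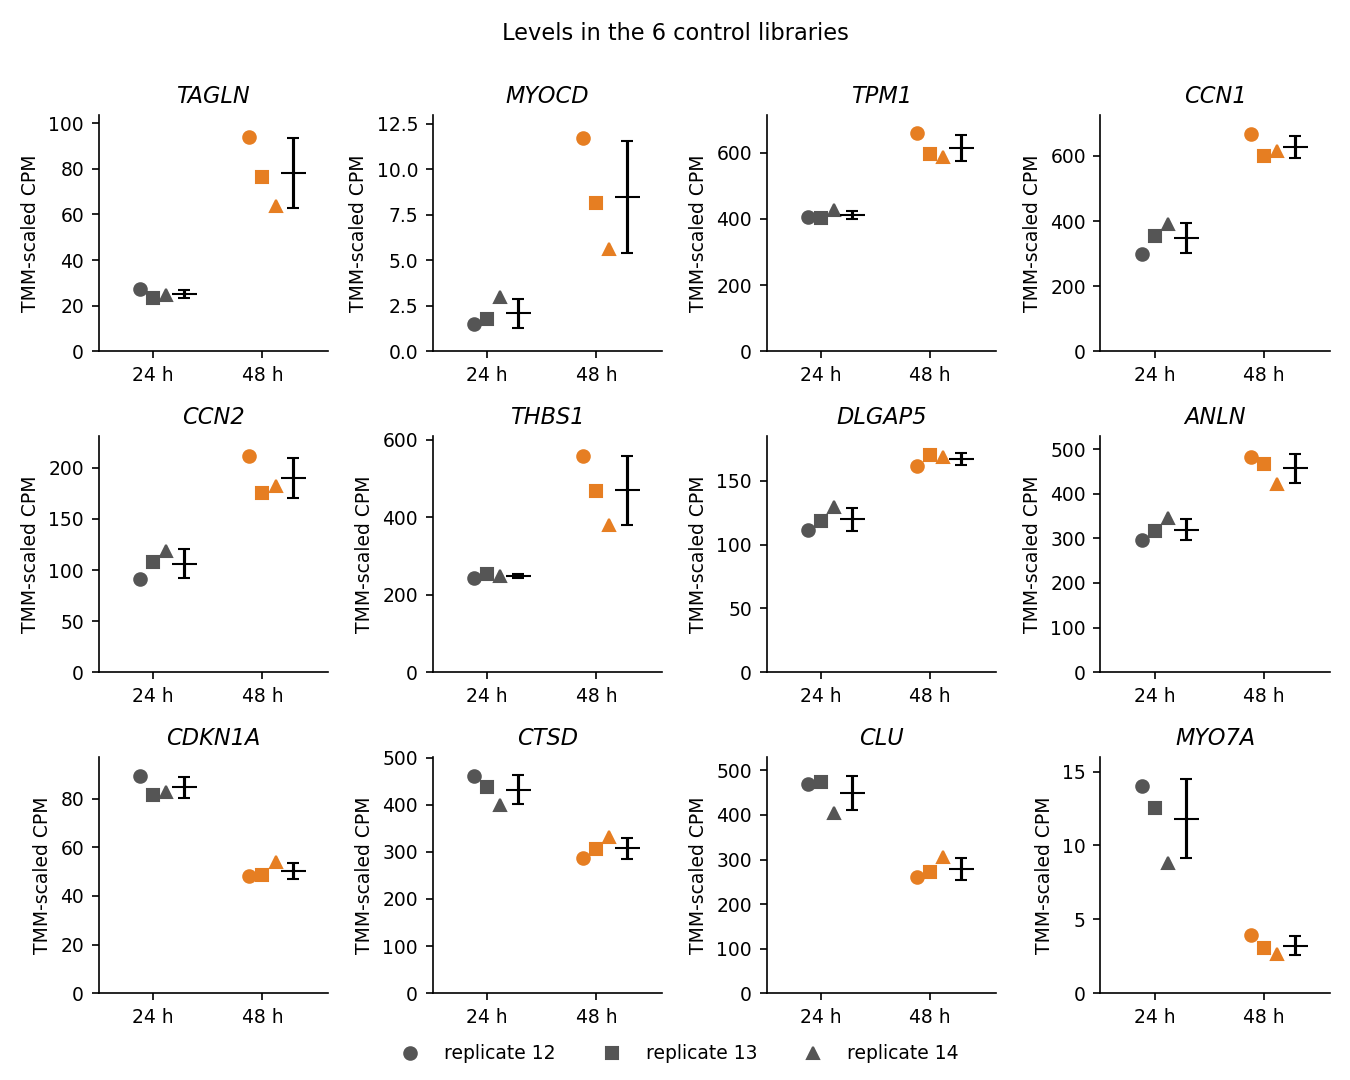
Each panel gives 1 gene's TMM-scaled CPM on a linear axis from 0 in the 6 control libraries (circle, square and triangle for replicates 12, 13 and 14), grey at 24 h and orange at 48 h, with the mean and SD (n = 3) beside each group. The 48 h points lie wholly above the 24 h points for TAGLN, MYOCD, TPM1, CCN1, CCN2, THBS1, DLGAP5 and ANLN and wholly below them for CDKN1A, CTSD, CLU and MYO7A.

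Targets of YAP and TAZ rose in part. Of 22 tested members 9 rose (40.9%, beside 2.69% of all genes), 0 fell and 13 were not called by edgeR. The median log2 change was 0.36, beside -0.00368 over all genes. CCN1 and CCN2 encode secreted matricellular proteins that bind integrins. CCN1 measured 298, 353 and 392.2 CPM at 24 h and 666, 600.4 and 615 CPM at 48 h, and CCN2 measured 90.8, 108 and 119 CPM at 24 h and 212, 176 and 182 CPM at 48 h. In both genes every later library lay above every earlier one, and control 24 h replicate 14 was the highest of the earlier ones. The rises were 1.8-fold and 1.79-fold (log2 changes 0.85 ± 0.09 and 0.84 ± 0.13, edgeR adjusted p = 5.04e-06 and 0.000369). ANKRD1, a muscle ankyrin repeat protein often read as a YAP reporter, went from 15.6, 14.0 and 24.2 CPM to 41.6, 39.6 and 37.4 CPM (2.19-fold, edgeR adjusted p = 0.00195). DLC1, encoding a GTPase-activating protein for RhoA, rose 1.64-fold with means of 223 ± 16.0 and 367 ± 37.5 CPM (SD, n = 3). F3, given below, and CRIM1, AMOTL2, WWC1 and GADD45B were the other members that rose, the last 4 named after their values were seen, with log2 changes of 0.59 ± 0.11, 0.40 ± 0.08, 0.38 ± 0.10 and 0.35 ± 0.10. AXL, the receptor tyrosine kinase with the highest count level in the list, gave a log2 change of 0.19 ± 0.08 and was not called. The CCN1, CCN2, ANKRD1 and DLC1 calls held in all 6 fits that left out 1 library, and the count of members was 7 to 13 in them.

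TGF-beta response genes rose in part. Of 21 tested members 5 rose (23.8%, beside 2.69% of all genes), and the median log2 change was 0.10. The members that rose included TGFBI, SKIL and INHBA. SMAD7, a SMAD inhibitor named after its value was seen, also rose (0.38 ± 0.11 on the log2 scale). TGFBI, an extracellular adhesion protein induced by TGF-beta, was at 239, 232 and 213 CPM at 24 h and 394, 343 and 297 CPM at 48 h. Its groups did not overlap, and TGFBI rose 1.51-fold (log2 change 0.60 ± 0.11, edgeR adjusted p = 0.00195). SKIL, a corepressor of SMAD proteins, rose by a log2 change of 0.68 ± 0.14. INHBA, the subunit of activin A, measured 8.55, 9.64 and 11.6 CPM at 24 h and 24.6, 23.2 and 21.3 CPM at 48 h and rose 2.32-fold. Without control 24 h replicate 12 the SKIL and INHBA calls were lost (largest adjusted p = 0.0727 and 0.0838), and INHBA also without control 24 h replicate 13. The list's count was 2 without control 24 h replicate 12 and 3 without control 24 h replicate 13.

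Many mitotic genes rose. Of 40 tested members 23 rose (57.5%, beside 2.69% of all genes) and 17 were not called, and the median log2 change was 0.31. In 31 of the 40 the 48 h libraries lay wholly above the 24 h libraries, beside 14.4% of all genes. DLGAP5, a spindle assembly protein, measured 111, 119 and 129 CPM at 24 h and 162, 170.3 and 169 CPM at 48 h. KIF20A, a kinesin of the midzone and cytokinesis, measured 200.2, 184 and 181 CPM at 24 h and 258, 273 and 238 CPM at 48 h. ANLN, encoding the cytokinetic ring protein anillin, measured 297, 316 and 345 CPM at 24 h and 483, 467 and 421 CPM at 48 h. No pair of groups overlapped in these 3 genes, and the rises were 1.39-fold, 1.36-fold and 1.43-fold (edgeR adjusted p = 0.00379, 0.00475 and 0.00553). BUB1, a kinase of the spindle checkpoint, rose by a log2 change of 0.41 ± 0.09, and TOP2A, the topoisomerase of chromosome condensation, by 0.38 ± 0.11. The count was 2 without control 24 h replicate 12, 5 without control 24 h replicate 13, 12 without control 48 h replicate 12 and 7 without control 48 h replicate 13. The DLGAP5 and KIF20A calls held in all 6 fits that left out 1 library. ANLN missed without control 24 h replicate 12 (adjusted p = 0.0525), BUB1 without control 24 h replicate 12 or 13 (largest 0.0569), and TOP2A without control 24 h replicate 12 or 13 or control 48 h replicate 12 or 13 (largest 0.207). In bulk RNA a larger share of cells in mitosis and more of these transcripts per cell cannot be told apart.

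Genes of DNA replication were called at a share near that of all genes. Of 40 tested members of the G1/S list 1 rose (2.5%, beside 2.69% of all genes), MCM10, a replication initiation factor named here after its value was seen (0.42 ± 0.10 on the log2 scale). It missed the threshold without control 24 h replicate 12 or control 48 h replicate 12, and 3 members were called without control 48 h replicate 14. The median log2 change was 0.04. MCM7, a subunit of the replicative helicase, was at 874, 806 and 813 CPM at 24 h and 798, 792 and 779 CPM at 48 h, without overlap, and was not called (-0.07 ± 0.07). Of 20 replication-dependent histone genes 0 were called by edgeR and 0 by DESeq2, with 5 higher and 1 lower at an unadjusted p below 0.05. Histone genes are near-identical copies and their transcripts mostly lack the poly(A) tails the libraries were selected for, so their levels are uncertain.

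Targets of p53 fell in part. Of 24 tested members 6 fell (25%, beside 3.43% of all genes) and 1 rose (4.17%, beside 2.69%). The median log2 change was -0.14. Besides the 4 given next, GDF15 (-0.97 ± 0.28) and PHLDA3 (-0.40 ± 0.12) fell and TIGAR (0.34 ± 0.10) rose, all 3 named after their values were seen. CDKN1A, encoding the cyclin-dependent kinase inhibitor p21, was at 89.5, 81.6 and 82.9 CPM at 24 h and 48.3, 48.7 and 54.1 CPM at 48 h. The earlier libraries all lay well above the later ones, and CDKN1A was 1.68-fold lower (log2 change -0.75 ± 0.11, edgeR adjusted p = 0.000148), a call that held in all 6 fits that left out 1 library. BTG2, an antiproliferative early gene, gave -0.74 ± 0.17 on the log2 scale, BBC3, encoding the proapoptotic protein PUMA, -0.55 ± 0.15, and FDXR, encoding ferredoxin reductase, -0.48 ± 0.14. Those 3 calls were lost without at least 3 of the 6 libraries in turn (largest adjusted p = 0.11, 0.173 and 0.234). GADD45A, the member with the highest count level, gave 0.15 ± 0.09 and was not called. The count of members that fell was 1 without control 24 h replicate 12 or 13 or control 48 h replicate 13 and 2 without control 48 h replicate 12.

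Some ribosome biogenesis genes rose. Of 34 tested members 7 rose (20.6%, beside 2.69% of all genes), and the median log2 change was 0.18. Those that rose included HEATR1, NOP58 and DKC1, named after their values were seen (0.54 ± 0.14, 0.35 ± 0.10 and 0.29 ± 0.09). DDX21, a nucleolar RNA helicase, measured 100.04, 105 and 119 CPM at 24 h and 171, 150.3 and 139 CPM at 48 h and rose 1.42-fold (edgeR adjusted p = 0.0103). WDR43 and UTP15, factors of small-subunit processing, changed by 0.43 ± 0.11 and 0.46 ± 0.12 on the log2 scale, and GNL3, encoding nucleostemin, by 0.35 ± 0.09. NCL, encoding nucleolin, changed by 0.19 ± 0.07 and was not called. The count was 0 without control 24 h replicate 12 or 13 or control 48 h replicate 12 and 3 without control 48 h replicate 13. Of 77 cytosolic ribosomal protein genes 0 were called by edgeR or DESeq2, with 1 higher and 2 lower at an unadjusted p below 0.05, and many of them have near-identical copies. Of 53 respiratory chain genes 0 were called by edgeR and 1 by DESeq2, with 5 higher and 1 lower at an unadjusted p below 0.05. Among 20 tRNA synthetases RARS1 and TARS1 rose (10%, beside 2.69% of all genes). RARS1, named after its value was seen, changed by 0.36 ± 0.10, and TARS1 by 0.33 ± 0.09, a call lost without control 24 h replicate 12 or 13 or control 48 h replicate 12 or 13 (largest adjusted p = 0.184). Without control 24 h replicate 14 there were 5 synthetase calls, and without control 24 h replicate 12 or 13 or control 48 h replicate 12 or 13 there were 0. Of 19 heat shock genes 3 rose (15.8%, beside 2.69% of all genes). DNAJB4 and the HSP70 and HSP90 cochaperones HSPH1 and CHORDC1 changed by 0.55 ± 0.12, 0.35 ± 0.08 and 0.37 ± 0.11. The heat shock count was 0 without control 24 h replicate 12 and 1 without control 24 h replicate 13.

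Matrix genes moved both ways. Of 25 glycoprotein and crosslinker genes tested 5 rose (20%, beside 2.69% of all genes) and 1 fell (4%, beside 3.43%). Their median log2 change was 0.18. THBS1, encoding thrombospondin 1, was at 242, 252 and 249 CPM at 24 h and 559, 467 and 381 CPM at 48 h. FN1, encoding fibronectin, was at 1865, 1743 and 1588 CPM at 24 h and 3954, 3628 and 2201 CPM at 48 h. Both separated the groups, with control 48 h replicate 14 lowest among the later libraries in each. The rises were 1.89-fold for THBS1 (edgeR adjusted p = 5.84e-05) and 1.88-fold for FN1 (0.00463), and both held in all 6 fits that left out 1 library. PLOD2 and LOXL2, which hydroxylate and crosslink collagen lysines, changed by 0.50 ± 0.11 and 0.42 ± 0.09 on the log2 scale. EFEMP1, a fibulin, rose by 0.48 ± 0.13 and LOXL1, another lysyl oxidase, changed by -0.41 ± 0.09, both named after their values were seen. PLOD2 was not called without control 48 h replicate 12 (adjusted p = 0.0536), nor LOXL2 without control 24 h replicate 13 or control 48 h replicate 12 (largest 0.08). The list's count of rises was 3 without control 24 h replicate 13, 2 without control 48 h replicate 12 and 9 without control 48 h replicate 14.

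Among 20 collagen genes tested 4 fell (20%, beside 3.43% of all genes) and 1 rose (5%, beside 2.69%). The median log2 change was -0.05. COL4A5 and COL4A6, neighbouring genes on the X chromosome that encode chains of basement membrane collagen IV, both fell. COL4A5 measured 46.0, 45.3 and 44.3 CPM at 24 h and 29.5, 26.5 and 27.1 CPM at 48 h, and COL4A6 measured 8.22, 7.66 and 10.4 CPM at 24 h and 3.52, 4.22 and 4.09 CPM at 48 h. Each gene's groups were apart, and the falls were 1.63-fold and 2.22-fold (log2 changes -0.71 ± 0.08 and -1.15 ± 0.22, edgeR adjusted p = 1.64e-05 and 0.00257). COL16A1, a fibril-associated collagen, was 1.65-fold lower, and COL8A1, a short-chain collagen, 1.3-fold higher, the latter not called without control 24 h replicate 12 or 13 or control 48 h replicate 12 or 13 (largest adjusted p = 0.107). COL6A1, a chain of microfibrillar collagen VI, changed by -0.38 ± 0.11, with overlapping groups and no call without control 24 h replicate 12 or 13 or control 48 h replicate 13 or 14 (largest adjusted p = 0.286). COL1A1, the chain of fibrillar collagen I that marks fibrogenic stellate cells, was at 2199, 2088 and 1743 CPM at 24 h and 2356, 2335 and 1993 CPM at 48 h. Its groups overlapped, and the change of 0.15 ± 0.10 was not called (edgeR adjusted p = 0.387). Without control 48 h replicate 14 the collagens numbered 4 higher and 3 lower. Of 24 matrix proteases and inhibitors 3 rose (12.5%, beside 2.69% of all genes). They were the metalloproteinase inhibitor TIMP3 (log2 change 0.41 ± 0.08) and the metalloproteinases ADAM19 (0.65 ± 0.13) and ADAMTS6 (0.56 ± 0.12), all called in every fit that left out 1 library. TIMP1 and TIMP2 changed by -0.00 ± 0.09 and -0.15 ± 0.08 and were not called.

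Integrin genes moved in both directions, with 3 of 17 higher and 3 lower (17.6% each, beside 2.69% and 3.43% of all genes). ITGB4, the laminin-binding subunit of hemidesmosomes, went from 58.3, 52.9 and 43.8 CPM to 30.2, 31.4 and 28.1 CPM, 1.73-fold lower (edgeR adjusted p = 5.84e-05), in a call that every fit without 1 library kept. ITGB1, the beta subunit shared by collagen and fibronectin receptors, measured 402, 426 and 447 CPM at 24 h and 633, 548 and 507 CPM at 48 h and rose 1.32-fold. ITGA7, a laminin receptor subunit, changed by -0.41 ± 0.09, and ITGB2, the beta subunit of leukocyte integrins, rose 3.69-fold from a mean of 0.508 ± 0.136 CPM (SD). The ITGB1 call was lost without control 24 h replicate 12 or 13 or control 48 h replicate 12 or 13, ITGA7 without control 24 h replicate 13 or control 48 h replicate 12 and ITGB2 without control 24 h replicate 12 or 13, with largest adjusted p of 0.159, 0.0673 and 0.067. ITGA4 and ITGA11, named after their values were seen, changed by 0.59 ± 0.16 and -0.60 ± 0.17. ITGA3, the alpha subunit with the highest count level, changed by -0.18 ± 0.08 and was not called. The counts of rises were 0 without control 24 h replicate 12 or 13 and 1 without control 48 h replicate 12 or 13, and falls numbered 1 without control 24 h replicate 13.

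Lysosomal genes fell in part. Of 33 tested members of the lysosome and autophagy list 7 fell (21.2%, beside 3.43% of all genes). The remaining 26 were not called, and the median log2 change was -0.16. CTSD, encoding the aspartic protease cathepsin D, measured 461, 437 and 398 CPM at 24 h and 287, 306 and 331 CPM at 48 h. CTSF, a cysteine cathepsin, measured 75.3, 70.5 and 66.7 CPM at 24 h and 51.7, 47.3 and 53.4 CPM at 48 h. In both genes the later libraries lay below the earlier ones, and the falls were 1.4-fold and 1.39-fold (edgeR adjusted p = 0.00197 and 0.00794). GAA, the acid alpha-glucosidase that degrades glycogen in lysosomes, changed by -0.33 ± 0.07 on the log2 scale, and PSAP, the precursor of the saposins, by -0.32 ± 0.08. SQSTM1 and CD63, named after their values were seen, also fell (-0.38 ± 0.09 and -0.28 ± 0.07). CTSD was called in all 6 fits that left out 1 library, CTSF was lost without control 24 h replicate 12 or control 48 h replicate 13, GAA without control 24 h replicate 12 or 13 or control 48 h replicate 12 and PSAP without control 24 h replicate 12 or 13 or control 48 h replicate 12 or 13 (largest adjusted p = 0.067, 0.067 and 0.117). The list's count was 2 without control 24 h replicate 12 or 13 or control 48 h replicate 12 or 13.

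Some lipid genes fell. Of 16 fatty acid oxidation and lipid droplet genes 3 fell (18.8%, beside 3.43% of all genes), namely CPT1A, the carnitine transferase that admits fatty acids to mitochondria (-0.39 ± 0.09 on the log2 scale), UCP2, a mitochondrial carrier (-0.33 ± 0.08), and ACADVL, the dehydrogenase of very long chain fatty acids (-0.36 ± 0.10). Of 19 genes of fatty acid and triglyceride synthesis 2 fell (10.5%) and 1 rose (5.26%, beside 2.69% of all genes). SREBF1, the transcription factor of lipid synthesis, went from 178 ± 30.6 to 126 ± 3.97 CPM (SD, n = 3), DGAT1, which makes triglyceride, changed by -0.43 ± 0.11, and GPAM, the first acyltransferase of that route, by 0.42 ± 0.12. SCD, the stearoyl-CoA desaturase, changed by -0.09 ± 0.08 and was not called. Each of these 6 calls was lost when any of at least 3 libraries was left out, with largest adjusted p from 0.123 (UCP2) to 0.234 (ACADVL). The count of fatty acid oxidation genes that fell was 0 without control 24 h replicate 12 or 13 or control 48 h replicate 13 and 1 without control 48 h replicate 12. That of lipid synthesis genes was 0 without control 24 h replicate 12 or 13 or control 48 h replicate 12 or 13 and 1 without control 48 h replicate 14.

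Some immediate early genes fell. Of 28 tested 4 fell (14.3%, beside 3.43% of all genes) and 1 rose (3.57%, beside 2.69%). The median log2 change was -0.10. KLF4, a zinc finger transcription factor, was at 49.5, 57.5 and 50.3 CPM at 24 h and 26.9, 20.5 and 32.0 CPM at 48 h, 1.98-fold lower with groups apart (edgeR adjusted p = 0.000774). NR4A2, an orphan nuclear receptor, went from 5.75, 7.39 and 6.01 CPM to 3.20, 3.53 and 3.70 CPM, and ZFP36, encoding the mRNA-destabilising protein tristetraprolin, changed by -0.65 ± 0.13. Those 3 calls held in all 6 fits that left out 1 library. BTG2, described above, also fell. The gene that rose was MYC, named after its value was seen (0.28 ± 0.08), and 0 members were called higher in each fit without 1 library except that without control 48 h replicate 14, which gave 2. JUN, an AP-1 subunit, changed by 0.02 ± 0.13 and was not called.

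The interferon, complement and prostaglandin genes that were called all fell, at shares of 8.70%, 18.8% and 26.7% beside 3.43% of all genes. Of 46 interferon-stimulated genes 4 fell, the median log2 change was -0.21 and 36 had a negative change. ISG15, a ubiquitin-like modifier, measured 65.7, 66.6 and 66.1 CPM at 24 h and 39.6, 38.1 and 53.3 CPM at 48 h and was 1.52-fold lower (edgeR adjusted p = 0.0337). ISG20, an RNA exonuclease, changed by -0.55 ± 0.14, and IRF7, a transcription factor of the interferon response, by -0.40 ± 0.12. B2M, encoding beta-2 microglobulin, changed by -0.07 ± 0.10 and was not called. The interferon count was 0 without control 24 h replicate 12 or control 48 h replicate 13 and 1 without control 24 h replicate 13 or control 48 h replicate 12. Of 16 complement genes 3 fell. CLU, encoding the secreted chaperone clusterin, measured 470.1, 474 and 405 CPM at 24 h and 259.8, 271 and 306 CPM at 48 h and was 1.61-fold lower (edgeR adjusted p = 0.000212), in a call held in all 6 fits that left out 1 library. C1QTNF1 and C2 changed by -0.68 ± 0.17 and -0.75 ± 0.20, and the complement count was 1 without control 24 h replicate 12 or 13 or control 48 h replicate 13. C1QTNF1 encodes a C1q-related protein that is not itself a complement component, so the share of 18.8% includes it by the list's choice. Its call and that of C2 were lost without several single libraries (largest adjusted p = 0.0979 and 0.154). Of 15 prostaglandin genes 4 fell, led by PTGER1, a receptor for prostaglandin E, at -0.82 ± 0.17 and PTGS1, cyclooxygenase 1, at -1.16 ± 0.30. That count was 1 without control 24 h replicate 12 or control 48 h replicate 13, 0 without control 24 h replicate 13 or control 48 h replicate 12 and 2 without control 48 h replicate 14. The other members called were AKR1C3, which has near-identical copies, and PTGES, at -0.79 ± 0.22 and -1.51 ± 0.45. PTGES had few counts, with means of 0.730 CPM at 24 h and 0.251 CPM at 48 h. Of the 6 fits that left out 1 library, AKR1C3 was called in 1 and PTGES in 0 (largest adjusted p = 0.193 and 0.213).

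Hypoxia and antioxidant genes moved both ways. Of 23 hypoxia genes 4 fell (17.4%, beside 3.43% of all genes) and 2 rose (8.7%, beside 2.69%). NDRG1, a stress-induced gene, went from 76.8, 76.8 and 71.1 CPM to 53.7, 52.4 and 53.7 CPM, 1.41-fold lower (edgeR adjusted p = 0.0033). MXI1, a repressor that opposes MYC, fell (log2 change -0.46 ± 0.12), as did DDIT4 and PPFIA4, named after their values were seen (-0.50 ± 0.13 and -0.46 ± 0.14). ADM, encoding adrenomedullin, rose (log2 change 0.46 ± 0.11), as did PLOD2, given above. BNIP3L, a mitophagy receptor, changed by 0.14 ± 0.09 and was not called. The count of falls was 1 without control 24 h replicate 12 or 13 or control 48 h replicate 12 and 2 without control 48 h replicate 13. The count of rises was 1 without control 24 h replicate 13 and 0 without control 48 h replicate 12. Of 26 NRF2 targets 3 fell (11.5%, beside 3.43% of all genes) and 1 rose (3.85%, near the 2.69% of all genes). GCLM, a subunit of the enzyme that limits glutathione synthesis, changed by 0.42 ± 0.10, EPHX1, an epoxide hydrolase, by -0.45 ± 0.11, HMOX1, heme oxygenase 1, by -0.45 ± 0.12 and AKR1C1, which has near-identical copies, by -0.57 ± 0.17. The count of falls was 0 without control 24 h replicate 12 or 13 or control 48 h replicate 12 or 13 and 1 without control 24 h replicate 14. The GCLM call was lost without control 24 h replicate 12 or 13 (largest adjusted p = 0.0935). AKR1C1 was called in 0 of the 6 fits that left out 1 library (largest 0.201).

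Genes of coagulation and fibrinolysis, which include the thrombin receptors, moved in both directions. Of 20 tested 4 fell (20%, beside 3.43% of all genes) and 3 rose (15%, beside 2.69%). Among them, and named after their values were seen, were F10, coagulation factor X (-0.69 ± 0.18), F2RL1, encoding the protease-activated receptor PAR2 (-0.73 ± 0.21), and ANXA2, annexin A2 (0.38 ± 0.10). F2R, encoding the main thrombin receptor PAR1, was at 266, 283 and 273 CPM at 24 h and 194, 192 and 192 CPM at 48 h. The 48 h libraries were almost equal and all lay below the 24 h libraries. F2R was 1.42-fold lower (log2 change -0.51 ± 0.08, edgeR adjusted p = 0.000363). SERPINE2, encoding protease nexin 1, an inhibitor of thrombin, was at 151, 178 and 144 CPM at 24 h and 106, 92.8 and 102 CPM at 48 h and was 1.57-fold lower. F3, encoding tissue factor, which starts the coagulation cascade, was at 54.7, 58.2 and 76.9 CPM at 24 h and 110.1, 94.1 and 115 CPM at 48 h and rose 1.68-fold. The calls of F2R, SERPINE2 and F3 held in all 6 fits that left out 1 library. The count of falls was 2 without control 24 h replicate 12 or 13 or control 48 h replicate 12 or 13.

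Several growth factor genes rose. Of 25 tested 4 rose (16%, beside 2.69% of all genes) and 2 fell (8%, beside 3.43%). The median log2 change was 0.01. FGF2, basic fibroblast growth factor, was at 46.2, 49.0 and 58.3 CPM at 24 h and 87.0, 79.3 and 81.8 CPM at 48 h and rose 1.61-fold (edgeR adjusted p = 0.000362). FGF1 rose 1.61-fold, and NRG1, a ligand of ERBB receptors, 1.41-fold. CSF1, the macrophage growth factor, was at 87.1, 81.7 and 89.0 CPM at 24 h and 59.1, 58.3 and 61.4 CPM at 48 h and was 1.44-fold lower. NRG1 was not called without control 24 h replicate 12 or 13 (largest adjusted p = 0.0812). Rises numbered 2 without control 24 h replicate 12 or 13, and falls numbered 1 without control 24 h replicate 12 or 13 or control 48 h replicate 12 or 13. HBEGF, a ligand of the EGF receptor, and MDK, encoding midkine, were the other members called, named after their values were seen (0.54 ± 0.13 and -0.47 ± 0.11). GAS6, the ligand of AXL, changed by -0.13 ± 0.10 and was not called. Of 26 BMP and activin genes 3 rose (11.5%, beside 2.69% of all genes). Besides INHBA these were FSTL1, a secreted glycoprotein (log2 change 0.59 ± 0.10, edgeR adjusted p = 0.000934), and GREM1, a BMP antagonist (0.74 ± 0.17), which was not called without control 24 h replicate 12 or 13 or control 48 h replicate 12 or 14 (largest adjusted p = 0.114). The BMP and activin count was 1 without control 24 h replicate 12 or 13 and 5 without control 24 h replicate 14. Of 26 Wnt genes 2 fell (7.69%, beside 3.43% of all genes) and 1 rose (3.85%, beside 2.69%). The share that rose was near that of all genes. Both Wnt counts were the same in all 6 fits that left out 1 library. The ligand gene WNT5B went from 71.0, 70.9 and 81.1 CPM to 114, 107 and 111 CPM, the ligand gene WNT10A from 1.74, 1.52 and 1.08 CPM to 0.315, 0.481 and 0.168 CPM, and WNT9A changed by -0.64 ± 0.13.

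Many of the genes with the largest changes had few counts. NPPB, encoding the natriuretic peptide BNP, was at 0.535, 0.0660 and 0.360 CPM at 24 h and 1.79, 1.34 and 2.47 CPM at 48 h. Even the lowest 48 h library lay above the highest 24 h library, and NPPB rose 5.69-fold (log2 change 2.51 ± 0.40, edgeR adjusted p = 0.000594). MGP, an inhibitor of calcification, rose 2.84-fold, and the serpin SERPINA9 4.01-fold. NLRP10, of the NOD-like receptor family, rose 3.37-fold and GRPR, the gastrin-releasing peptide receptor, 2.39-fold. LINC01111 and the antisense RNA HIF1A-AS3 changed by 2.09 ± 0.45 and 1.37 ± 0.31. Among genes that fell, MYO7A, an unconventional myosin (chromosome 11, bases 77128246 to 77215241), was at 14.0, 12.5 and 8.83 CPM at 24 h and 3.94, 3.04 and 2.69 CPM at 48 h. The fall was 3.64-fold (log2 change -1.86 ± 0.24, edgeR adjusted p = 7.81e-05). CES3, a carboxylesterase, was 3.38-fold lower, ZNF467, a zinc finger gene, 3.1-fold, GJB2, encoding connexin 26, 2.74-fold, and SLCO2B1, an organic anion transporter, 2.47-fold. The other 7 genes of largest fall were GASK1B, KCP, FZD4-DT, LINC01152, GPAT3, LMNTD2-AS1 and LOC107985770, with log2 changes from -1.60 to -1.26, and each of these calls was lost when any of several libraries was left out (largest adjusted p from 0.0752 to 0.21). So was GRPR without control 24 h replicate 12 or 13 or control 48 h replicate 12 (largest 0.116), HIF1A-AS3 without control 24 h replicate 12 or 13 or control 48 h replicate 13 (largest 0.0848), LINC01111 without control 24 h replicate 13 (0.0575) and CES3 without control 24 h replicate 12 (0.0647). NPPB, MGP, SERPINA9, NLRP10, MYO7A, ZNF467, GJB2 and SLCO2B1 kept theirs in all 6 fits.

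**Figure D3:**
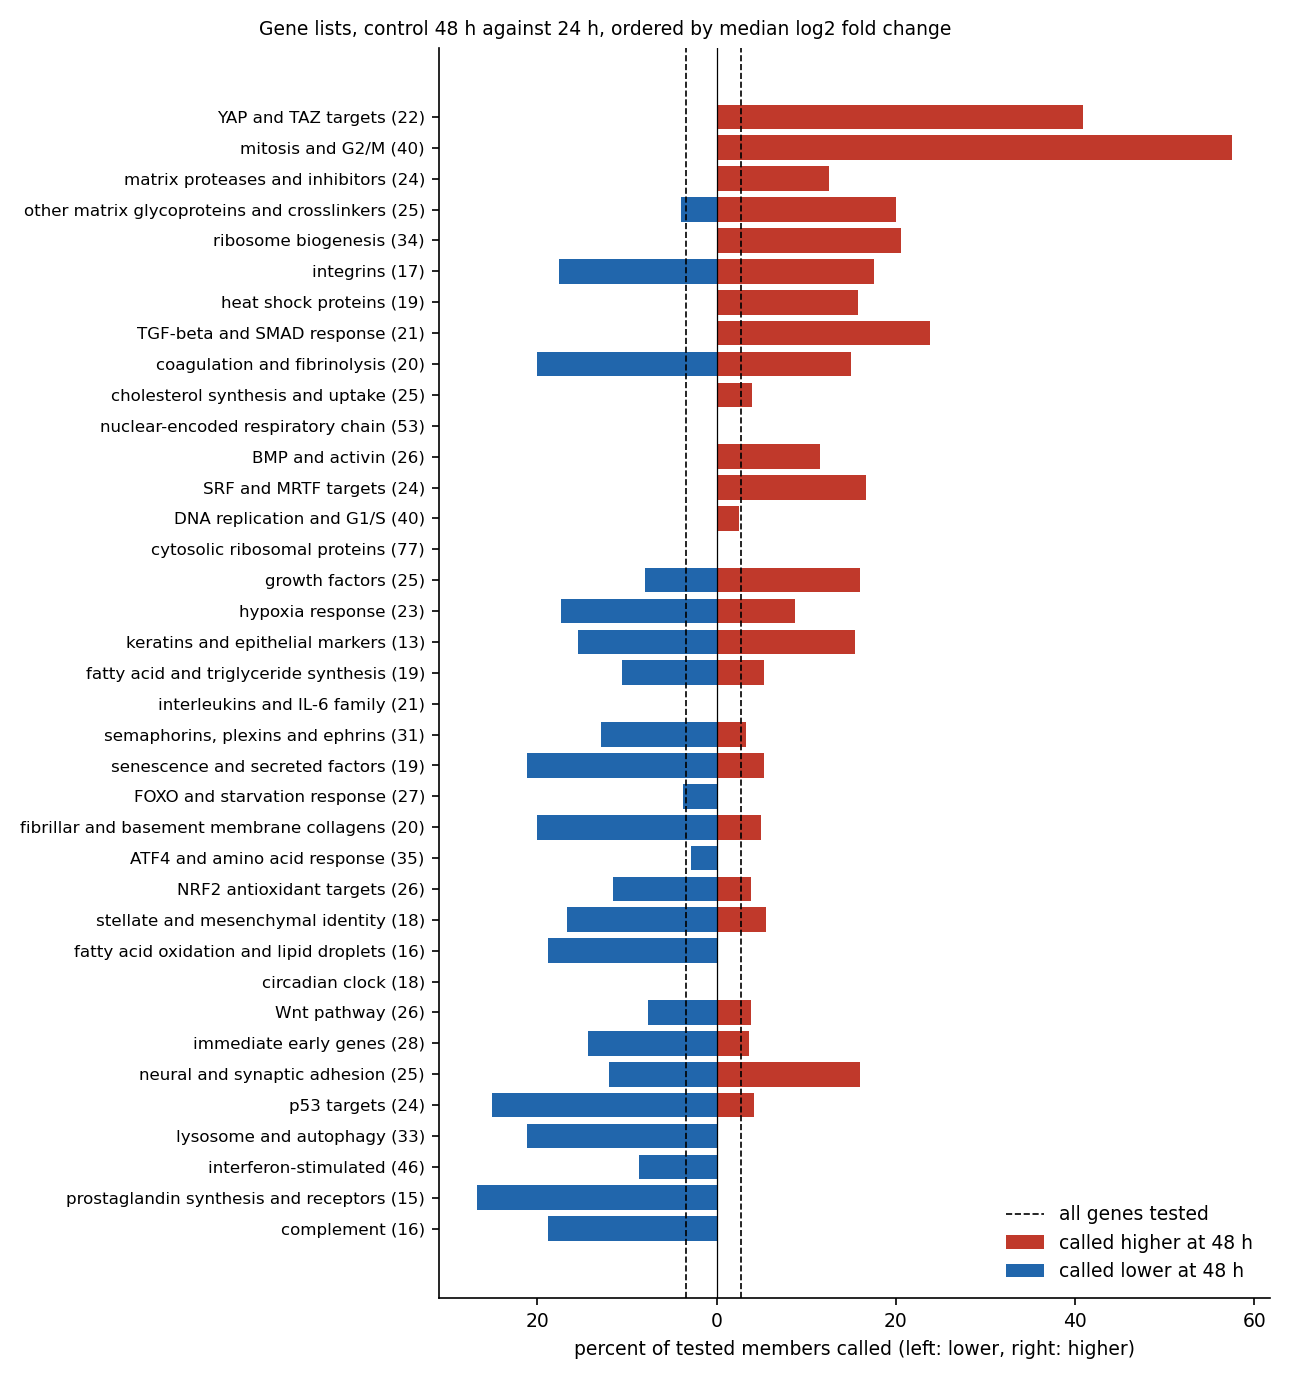
Bars give the percent of each list's tested members (number in brackets) called higher at 48 h to the right and lower to the left, in order of median log2 fold change, with dashed lines at the 2.69% and 3.43% of all tested genes. Mitosis (23 of 40) and YAP and TAZ targets (9 of 22) extend well past the dashed line on the right.

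The FOXO, ATF4 and unfolded protein response lists were called lower at shares near that of all genes. Of 27 FOXO and starvation genes 1 fell (3.70%), of 35 ATF4 targets 1 (2.86%) and of 26 genes of the unfolded protein response 1 (3.85%), beside 3.43% of all genes. These were TXNIP (-0.48 ± 0.11), DDIT4 and CRELD1 (-0.53 ± 0.12), named after their values were seen. Members with the highest count level in these lists were not called, namely CITED2 (-0.13 ± 0.09), SLC38A2 (0.18 ± 0.10) and P4HB (-0.08 ± 0.07). Of 18 circadian clock genes 0 were called by edgeR and 2 by DESeq2, with 1 higher and 4 lower at an unadjusted p below 0.05. Of 21 interleukin and IL-6 family genes 0 were called by edgeR and 1 by DESeq2, with 3 higher and 2 lower at an unadjusted p below 0.05. Among 13 chemokine genes CCL2 and CXCL6 rose (15.4%, beside 2.69% of all genes). Both were named after their values were seen (0.86 ± 0.24 and 0.77 ± 0.20). The chemokine list had a median log2 change of 0.33. Its count was 0 without control 24 h replicate 12 or control 48 h replicate 12 or 13. It was 1 without control 24 h replicate 13 or 14. CXCL12, the member with the highest count level, changed by -0.12 ± 0.17 and was not called. NF-kappa-B targets gave 1 call in 24 (4.17%), again CCL2.

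Stellate cell markers were detected in both groups, some of them near 0. None of the 21 markers listed for stellate and mesenchymal cells was at 0 in all 6 libraries, and their summed level was 7686 to 8452 CPM at 24 h and 8156 to 8384 CPM at 48 h. Most of that sum was VIM, which is not specific to stellate cells, and COL1A1. DES was at 2.27, 3.56 and 2.10 CPM at 24 h and 1.42, 1.82 and 3.53 CPM at 48 h. COL1A2 was at 17.8, 14.7 and 12.4 CPM at 24 h and 21.1, 15.4 and 15.0 CPM at 48 h. Lumican (LUM), decorin (DCN) and LRAT, which esterifies retinol, had at most 6 counts in any of the 6 libraries, so these defining genes were near 0. PDGFRB, the receptor for PDGF-B, was at 95.5, 74.7 and 60.5 CPM at 24 h and 69.0, 67.4 and 51.9 CPM at 48 h, and VIM, the mesenchymal intermediate filament vimentin, was at 3375, 3529 and 3646 CPM at 24 h and 3379, 3496 and 3931 CPM at 48 h. Both had overlapping groups and were not called. Of 18 tested markers 3 fell (16.7%, beside 3.43% of all genes) and 1, TAGLN, rose (5.56%, beside 2.69%). S100A6, a calcium-binding protein not specific to stellate cells, was at 597, 608 and 524 CPM at 24 h and 325, 387 and 427 CPM at 48 h and was 1.52-fold lower (edgeR adjusted p = 0.00268). COL6A1 and NES, encoding the intermediate filament nestin, changed by -0.38 ± 0.11 and -0.84 ± 0.25, and these calls were lost without at least 4 of the 6 libraries in turn. ECM1, a secreted matrix protein of quiescent stellate cells, was at 214, 221 and 203 CPM at 24 h and 144, 149.7 and 153 CPM at 48 h and was 1.43-fold lower (edgeR adjusted p = 0.000649). Of 17 tested genes of quiescence and retinoid storage 2 fell, ECM1 and DGAT1 (11.8%, beside 3.43% of all genes). That list's log2 changes ran from -1.02 to 1.13, with 5 positive and 12 negative. Of 14 activation markers S100A6 fell and FAP, named after its value was seen, rose (7.14% each, beside 3.43% and 2.69%). FAP averaged 0.415 CPM at 24 h, and its call was lost in most fits without 1 library.

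Some markers of other liver cells were at 0 and others were detected. Of 21 hepatocyte markers 9 were at 0 in the 6 libraries, APOB, TTR and AHSG among them, and the sum was 59.99 to 66.5 CPM at 24 h and 58.8 to 78.0 CPM at 48 h, most of it CPS1. Of 16 endothelial markers CLEC4G and LYVE1 were at 0, and the sums were 65.0 to 74.2 and 60.3 to 75.4 CPM. Of 19 macrophage and leukocyte markers 8 were at 0, C1QA, CD163 and CD3E among them. Their sum was 80.4 to 90.6 CPM at 24 h and 70.1 to 78.7 CPM at 48 h, without overlap, and CD68 made up most of it (78.6, 70.8 and 73.2 CPM at 24 h and 61.1, 69.9 and 68.0 CPM at 48 h). Of 11 cholangiocyte markers TFF3 was at 0 and the sums were 584 to 607 and 522 to 561 CPM, without overlap, most of it SLC4A2, an anion exchanger that many cells express. SOX9, a transcription factor of bile duct cells and of activated stellate cells, was at 151, 175 and 170.2 CPM at 24 h and 133, 143 and 153 CPM at 48 h. KRT7, a keratin of bile duct cells, was the 1 called member of that list. It was at 4.74, 4.55 and 4.69 CPM at 24 h and 8.56, 7.48 and 9.02 CPM at 48 h and rose (0.84 ± 0.17 on the log2 scale, edgeR adjusted p = 0.00415). The part these shifts play in the results was not tested.

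The change from 24 to 48 h differed between control and thrombin in 13.8% of genes. As given above, edgeR called 0 genes between thrombin and control at 48 h (1110 at an unadjusted p below 0.05, DESeq2 14). The difference between the 2 changes was tested by the interaction in the same edgeR fit, in which the pairs of groups share no library, and 2126 genes were called (13.8%), 1026 with a more positive change in control (6.68%) and 1100 with a more negative one (7.16%). Of the 413 genes that rose in control, 331 had a significantly more positive change in control and 82 were not called. Of the 527 that fell, 358 had a significantly more negative change, 1 a more positive one and 168 were not called. The control change chose these genes and is also a term of the interaction, so the direction of these counts is largely fixed by the choice. With thrombin, 126 of the 413 fell from 24 to 48 h, 2 rose and 285 were not called, beside 4.31% of all genes that rose and 5.41% that fell. Of the 527, 107 rose with thrombin, 19 fell and 401 were not called.

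**Figure D4:**
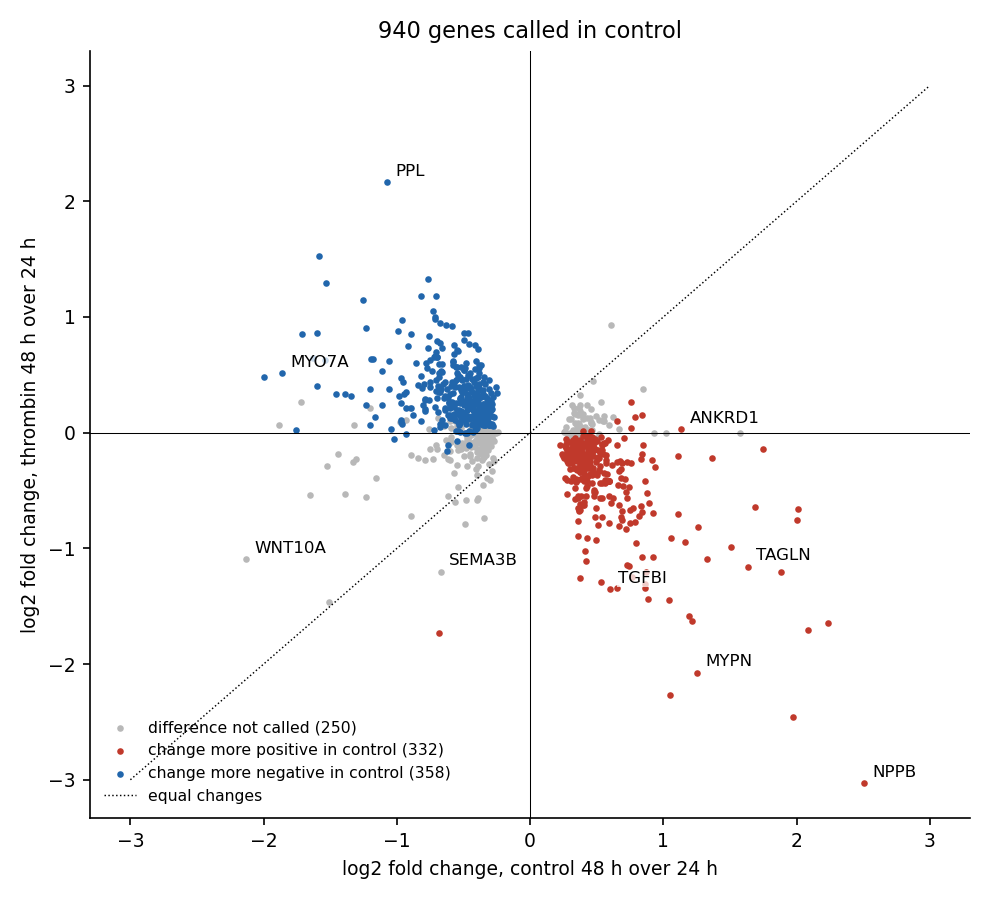
Each point is 1 of the 940 genes called in control, with its log2 fold change of 48 h over 24 h in control on the horizontal axis and in thrombin on the vertical axis, red or blue where the 2 changes differed by the interaction test and grey where they did not. Most points lie off the dotted line of equal change, with NPPB, TAGLN and MYPN up in control and down in thrombin and PPL the reverse.

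TAGLN changed by 1.64 ± 0.13 in control and -1.16 ± 0.12 in thrombin on the log2 scale (interaction 2.80 ± 0.17, edgeR adjusted p = 9.84e-11). TGFBI changed by 0.60 ± 0.11 and -1.35 ± 0.11 (interaction adjusted p = 5.16e-09). For ANKRD1 the thrombin change was 0.03 ± 0.18, and for CCN1 and CCN2 it was -0.10 ± 0.09 and 0.15 ± 0.12, and in each gene the control change was larger (interaction adjusted p = 0.00774, 1.29e-05 and 0.00981). Of the 40 mitotic genes 27 had a more positive change in control, and of the 22 YAP and TAZ targets 17, beside 6.68% of all genes. Both lists were singled out for their rise in control, which is a term of the interaction. The direction of these 2 counts is therefore largely fixed by the choice. F2R rose with thrombin (0.46 ± 0.08, edgeR adjusted p = 0.00025) where it fell in control (interaction adjusted p = 9.76e-07). Some genes changed alike in direction. SEMA3B, a secreted semaphorin, fell in both, with log2 changes of -0.67 ± 0.14 in control and -1.20 ± 0.14 in thrombin, and so did NDRG1, with -0.49 ± 0.10 and -0.79 ± 0.09, with differences that were not called (interaction 0.53 ± 0.20 and 0.30 ± 0.13). Of the 25 cholesterol genes 15 had a significantly lower change in control than in thrombin, beside 7.16% of all genes. With thrombin 19 of the 25 rose, beside 4.31% of all genes.

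The levels at 4 h are given for scale. Against 4 h, 8.10% of genes were higher and 7.15% lower at 24 h, and 3.76% higher and 4.17% lower at 48 h. The 24 h control libraries enter both steps, so the steps are not independent and are not compared by a test. TAGLN averaged 72.8 ± 5.77 CPM at 4 h, 25.1 ± 1.92 at 24 h and 78.1 ± 15.2 at 48 h (SD, n = 3 in each). The 48 h level differed from that at 4 h by 0.10 ± 0.12 on the log2 scale (edgeR adjusted p = 0.645). CCN1 at 403 ± 22.9 CPM at 4 h was below its 48 h level (log2 difference 0.64 ± 0.09, edgeR adjusted p = 8.47e-05), and so was ANKRD1 at 20.4 ± 2.12 CPM (0.95 ± 0.19, 0.0038). MYPN at 16.1 ± 2.67 CPM was above its 48 h level (-1.08 ± 0.17, 0.000212). CDKN1A stood at 71.4 ± 6.00 CPM at 4 h and was lower at 48 h (-0.50 ± 0.10, 0.0037), and F2R stood at 175 ± 15.6 CPM, with 48 h against 4 h at 0.14 ± 0.08 (adjusted p = 0.285).

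**Figure D5:**
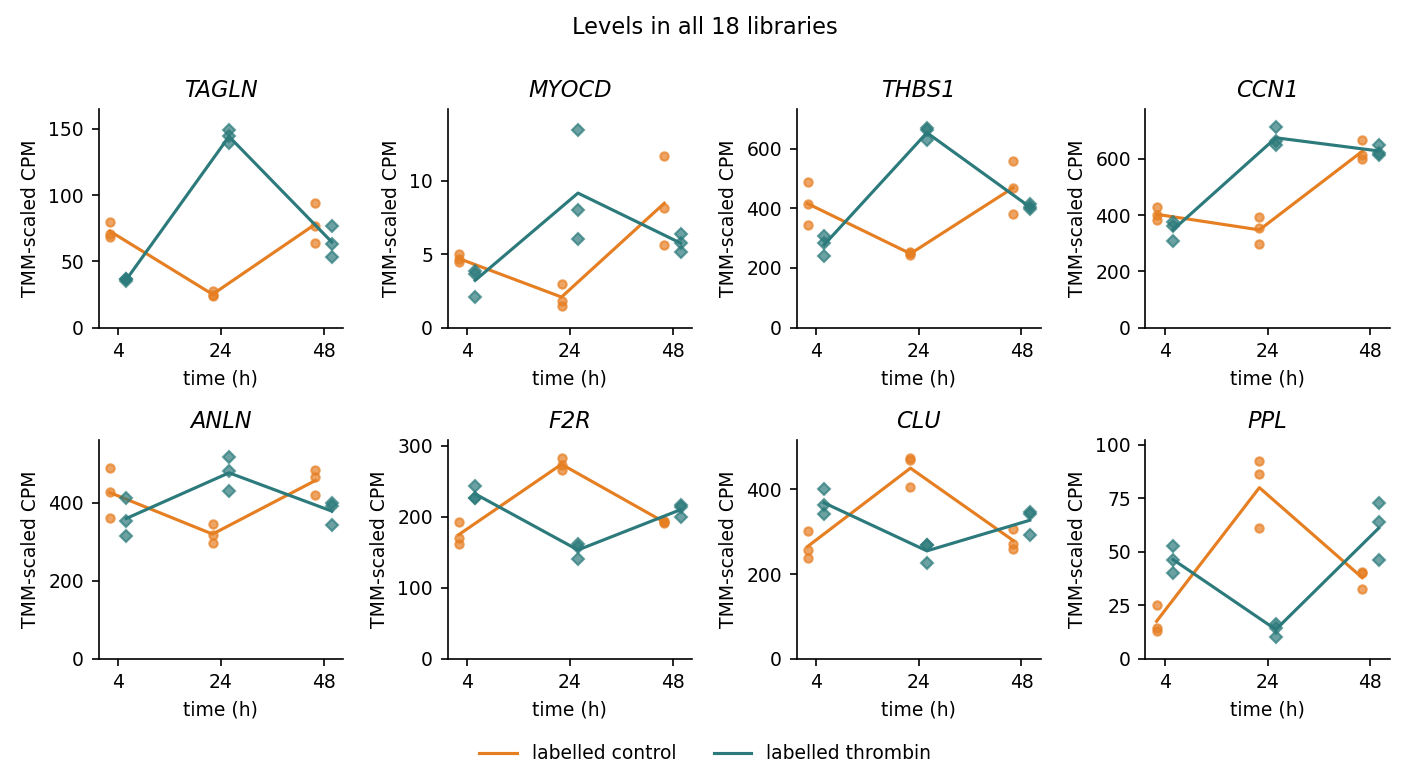
TMM-scaled CPM of 8 genes in all 18 libraries on linear axes from 0 against time (4, 24 and 48 h), orange for libraries labelled control and teal for those labelled thrombin, with lines through the group means. TAGLN, MYOCD, THBS1 and ANLN are lowest and F2R, CLU and PPL highest in control at 24 h, where the 2 labels are furthest apart.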

How the data were processed

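Poly(A)-selected RNA of LX-2 cells was sequenced in 18 libraries. Whole-number gene counts were deposited by the authors, not normalized. The tools listed per the submitters' processing notes are Bowtie2 2.5.4, cutadapt 4.9, DESeq2 and SAMtools 1.21, and the build is GRCh38 (hg38). The role of each tool, the counter, annotation and strand setting are not given in the sources used here. All 18 columns matched a library title.

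Counts of 28278 gene symbols (4439 with no count) were filtered with filterByExpr (minimum count 10) and TMM-scaled. A mean per group was fitted in all 18 libraries with edgeR 4.0.16 in R 4.3.3 (robust quasi-likelihood, 12 residual df, a biological coefficient of variation of 9.07%). The contrasts were control 48 h minus 24 h and its difference from thrombin, two-sided, with Benjamini-Hochberg adjustment over 15353 genes. SE is the log2 change divided by the square root of F. DESeq2 1.42.0, other scalings and filters, fits of 6 libraries, a replicate block, leaving out each library, thinning and omission of replicate 14 were alternatives. The code was tested on simulated data. No replicate pair was a duplicate (chi-square per degree of freedom 2.92 to 17.7). Gene positions come from RefSeq (95.5% of symbols matched). Counts per library limit precision for genes near 1 CPM.

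Members and lists were chosen with earlier results of these data known. Named genes were the 12 largest called changes each way with a mean of at least 1 CPM, up to 4 called members by adjusted p of each list with at least 3 or 25% called, each described list's member with the highest level, the 5 smallest interaction p-values, the 5 highest-level genes changed at least 2-fold, and ACTA2, COL1A1, TAGLN, PDGFRB, VIM, TIMP1 and F2R. Promoters shown are the first 2 called members by adjusted p with a match outside exons of the GENCODE 29 annotation. A few items that fall under these rules are not reported here.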

Additional observations from a re-analysis of the deposited data

Results flagged for a closer look

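The 26 genes given here were named for the size of their control change, for a small interaction p or for a high level with at least a 2-fold change. Their change from 24 to 48 h differed between control and thrombin by the interaction contrast in the edgeR fit of all 18 libraries (adjusted p below 0.05). The control change or interaction p that chose them enters this same test. Passing it, and the sign of the difference, are therefore largely fixed by the choice. Other named genes, F2R, CCN1 and CDKN1A among them, passed the same test. Values below are the control change minus the thrombin change on the log2 scale, with SE where given. Among genes for muscle proteins and regulators, TAGLN differed by 2.80 ± 0.17, MYPN by 3.33 ± 0.27 and MYOCD by 2.67 ± 0.43. The antisense RNA TPM1-AS, inside TPM1, differed by 2.41 ± 0.18, and ANKRD1 differed by 1.10 ± 0.26. Among secreted proteins, NPPB differed by 5.53 ± 0.49, the largest of the 26 in size. TGFBI differed by 1.95 ± 0.15, MGP by 2.49 ± 0.43, SERPINA9 by 2.75 ± 0.55 and CRISPLD2 by 2.76 ± 0.19. The control change of CRISPLD2 alone was not called, nor was that of MYADM, a membrane protein gene that differed by 1.67 ± 0.13. The membrane and cytoplasmic proteins ITGB2, GRPR and NLRP10 differed by 3.09, 2.07 and 1.89, and the RNAs LINC01111 and HIF1A-AS3 by 3.79 and 1.58. In the other direction, PPL differed by -3.24 ± 0.35 and MYO7A by -2.38 ± 0.35. Among the other 8 genes, KCP differed by -2.82, GASK1B by -2.47, LOC107985770 by -2.40 and ZNF467 by -2.28. GJB2 differed by -1.79, CES3 by -1.78, FZD4-DT by -1.72 and LINC01152 by -1.66.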

How the results depend on the processing

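Counts of called genes moved more than directions. Beside 413 higher and 527 lower, the counts were 844 and 680 with no low-count filter, 808 and 803 with the 6 control libraries fitted alone and 634 and 702 with DESeq2. With RLE or upper-quartile scaling they were 424 and 518 or 397 and 569, and with a minimum of 1 CPM 449 and 522. Leaving out 1 of the 6 libraries gave 96 to 575 higher and 118 to 560 lower. The interaction count of 2126 ranged from 1465 to 2238 in those fits and was 2399 with DESeq2. Among lists, leaving out 1 library gave 2 to 23 mitotic genes higher, 7 to 13 YAP and TAZ targets higher, 0 to 8 ribosome biogenesis genes higher, 2 to 8 lysosomal genes lower and 1 to 6 p53 targets lower. YAP and TAZ targets numbered 15 with no filter, and ribosome biogenesis genes 11 with the 6 libraries alone. In each of these fits 0 of the 940 called genes changed sign. Deviations of same-numbered libraries of the control 24 h and 48 h groups correlated at -0.036, 0.039 and -0.014, and not every library correlated best with its own number. With 3 libraries a group, this cannot exclude an effect shared by number. At 4 h, replicate 12 differed more from 13 and 14 than these did from each other, in both groups. Its chi-square per degree of freedom was 16.4 and 16.1 in control and 14.4 and 17.0 in thrombin. Between 13 and 14 it was 4.41 and 5.80. A replicate block gave 421 higher, 539 lower and 2159 interaction calls. The next 2 alternatives were chosen after seeing the data. Thinning to equal depth gave 383, 486 and 2037, and leaving out all libraries numbered 14 gave 537, 581 and 1887. The cause of these differences was not tested. With 3 libraries a group, small changes and genes with few counts are the ones most likely to be missed.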

Other observations

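Adhesion and guidance genes of neural tissue, which stellate cells also express, moved in both directions. Of 25 neural and synaptic adhesion genes tested 4 rose (16%, beside 2.69% of all genes) and 3 fell (12%, beside 3.43%). NRXN3, encoding neurexin 3, was at 13.5, 14.7 and 15.7 CPM at 24 h and 26.5, 25.9 and 21.1 CPM at 48 h and rose 1.67-fold (log2 change 0.74 ± 0.13, edgeR adjusted p = 0.00104). CDH2, encoding N-cadherin, was at 143, 144 and 146 CPM at 24 h and 223, 201 and 183 CPM at 48 h and rose 1.4-fold. PCDH18, a protocadherin, was 1.81-fold lower. These 3 calls held in all 6 fits that left out 1 library, while NEGR1, a neuronal growth regulator (0.83 ± 0.17), was not called without control 48 h replicate 12 (adjusted p = 0.0535). CDH4, a cadherin, and SLITRK4, named after their values were seen, changed by 0.56 ± 0.13 and -0.77 ± 0.18. Without control 24 h replicate 13, control 48 h replicate 12 or control 48 h replicate 13 the count of falls was 1. L1CAM, an adhesion molecule of axons, changed by -0.30 ± 0.08, and its call was lost without control 24 h replicate 12 or 13 or control 48 h replicate 12, 13 or 14 (largest adjusted p = 0.212). Of 31 semaphorin, plexin and ephrin genes 4 fell (12.9%, beside 3.43% of all genes) and 1 rose (3.23%, near the 2.69% of all genes). PLXND1, a semaphorin receptor, was 1.53-fold lower (edgeR adjusted p = 0.00253), a call held in all 6 fits. PLXNB1, another plexin, and EPHB4, an ephrin receptor, changed by -0.42 ± 0.11 and -0.31 ± 0.09. SEMA3B, given above, also fell, and SEMA7A, named after its value was seen, rose by 0.43 ± 0.13. The count of falls was 2 without control 24 h replicate 12 or control 48 h replicate 13 or 14 and 1 without control 24 h replicate 13 or control 48 h replicate 12.

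Of 13 keratin and epithelial genes tested 2 rose, 2 fell and 9 were not called. The shares were 15.4% each way, beside 2.69% higher and 3.43% lower of all genes. JUP, encoding the junction protein plakoglobin, was at 185, 176 and 156 CPM at 24 h and 109, 116 and 112 CPM at 48 h and was 1.53-fold lower (edgeR adjusted p = 0.000272). PPL, encoding periplakin, was at 92.1, 86.4 and 61.1 CPM at 24 h and 40.5, 40.3 and 32.8 CPM at 48 h and was 2.11-fold lower, with no call without control 24 h replicate 12 or 13 or control 48 h replicate 12, 13 or 14 (largest adjusted p = 0.099). KRT7 went from 4.74, 4.55 and 4.69 CPM to 8.56, 7.48 and 9.02 CPM and rose 1.79-fold. KRT81 rose 2.28-fold, but hair keratin genes have near-identical copies, so its level is uncertain. The count of falls was 1 without control 24 h replicate 12 or 13 or control 48 h replicate 12, 13 or 14. Of 19 genes linked to senescence, cell cycle inhibitors and secreted factors together, 4 fell and 1 rose. The shares were 21.1% and 5.26%, beside 3.43% and 2.69% of all genes. The secreted protein IGFBP7 changed by -0.57 ± 0.15, and CDKN2B, encoding the intracellular inhibitor p15, by -0.35 ± 0.10, beside CDKN1A and GDF15 described above. The count of falls was 1 without control 24 h replicate 12 or 13 or control 48 h replicate 12 or 13.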
